A study of Mus musculus and Homo sapiens with 21 samples.

Results

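Integrins are the transmembrane receptors that hold a cell to its extracellular matrix. Here 37 genes of this adhesion machinery were followed in 2 triple-negative breast cancer lines with CRISPR knockout of an IL13 receptor gene. The genes were picked by gene name (title case in the mouse tables): 16 integrin α chains, 8 integrin β chains, the 3 kindlins, the 2 talins and 8 adaptors of the adhesion plaque. All 37 were found in each table, among 58735 genes of the human table and 54532 of each mouse table.

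Each integrin is a pair of 1 α and 1 β chain, and the pair decides which matrix protein is bound. A heterodimer becomes able to bind when a talin and a kindlin attach to the short cytoplasmic tail of its β chain. The bound receptors cluster, and adaptors such as vinculin, paxillin and the complex of ILK, PINCH and parvin tie them to actin and to kinases such as FAK. In breast carcinoma cells these receptors carry attachment, spreading, migration and survival signals from laminins, collagens and fibronectin.

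The human line was MDA231BrM2 (MDA 231-BrM2-831 in the labels), a brain-seeking variant of MDA-MB-231, with a CRISPR control (CTL) or an *IL13RA2* CRISPR knockout (ΔIL13RA2), both untreated. The mouse line was 4T1, a mammary carcinoma line, as CTL, ΔIl13ra1 and ΔIl13ra2 without treatment, and as CTL and ΔIl13ra2 given murine IL13 at 20 ng/mL for 48 h. Bulk RNA-seq was made in 3 libraries of each of these 7 groups, from cells kept in medium with 2% serum. Per the study's methods, the *IL13RA2* knockouts were made with 3 guide RNAs. The human knockout was then sorted for cells without surface IL13RA2, whereas 4T1-ΔIl13ra2 could be sorted only for the fluorescent marker of the plasmid. How 4T1-ΔIl13ra1 was made was not given in the sources used here. A knockout and its CTL are separate cell populations, so receptor loss cannot be told apart from sorting or other differences between the populations. Nothing in the labels says that the 3 libraries of a group came from separate cultures, so p-values measure the spread between these samples, which may be technical.

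The 21 libraries held 14744736 to 21762025 reads on genes (median 17274112). *IL13RA2* was at 15.1, 15.2 and 18.5 FPKM (fragments scaled to gene length and to library depth) in MDA231BrM2-CTL and at 11.4, 13.7 and 11.4 in ΔIL13RA2 (adjusted p = 0.0246), so its transcript fell without being lost. *Il13ra2* was at 13.4, 13.1 and 16.2 FPKM in IL13-treated 4T1-CTL and at 7.89, 7.82 and 7.25 in ΔIl13ra2 (adjusted p = 0.0199). In untreated 4T1 it had at most 6 reads in any library and checks no label there. *Il13ra1* was at 7.82, 7.17 and 8.14 FPKM in untreated 4T1-CTL and at 3.49, 3.91 and 3.29 in ΔIl13ra1 (adjusted p = 0.00837). Genes seen by exactly 1 read numbered 274 in IL13-treated ΔIl13ra2 replicate 2 and 1882 to 2218 in each other IL13-treated library, so the lowest values of that library are incomplete. The labels call both lines epithelial: 7 of 10 epithelial markers were above 1 FPKM in MDA231BrM2 and 8 of 10 in 4T1, while *CDH1* (E-cadherin) was at 0.0180 FPKM and *KRT5* at 0 in MDA231BrM2-CTL.

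Both lines expressed a limited set of the 37 genes. The mean was above 1 FPKM for 24 genes in MDA231BrM2-CTL, for 23 in untreated 4T1-CTL and for 22 in IL13-treated 4T1-CTL. FPKM is per length, so genes can be ordered within a group. The 3 tables were each scaled alone, so levels of different tables are set side by side without a test.

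**Figure D1:**
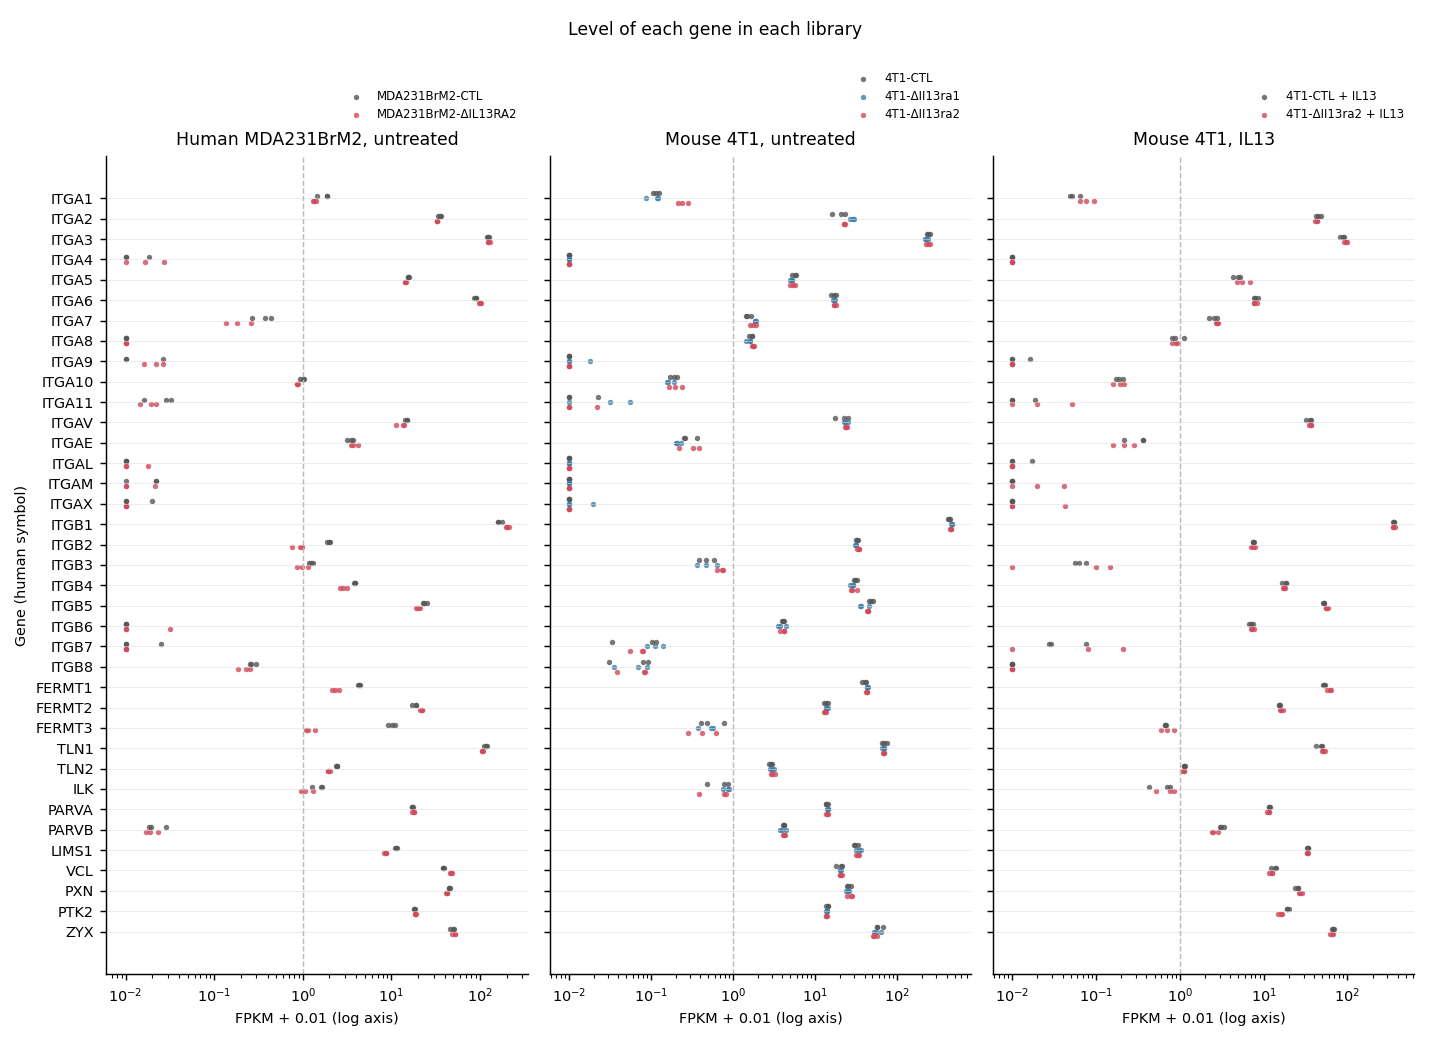
FPKM of each of the 37 genes in each of the 21 libraries (1 point per library, log axis, 0.01 added so that zeros appear at the left edge), in the human table and the 2 mouse tables. The dashed line marks 1 FPKM. *ITGB1* was the highest of the 37 genes in each control group, and *ITGAL*, *ITGAM* and *ITGAX* lay below 0.05 FPKM in every library.

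Among the α chains of MDA231BrM2, the laminin receptors led. *ITGA3*, which pairs with β1 to bind laminins, was at 124, 126 and 121 FPKM in CTL and at 131, 125 and 123 in ΔIL13RA2. *ITGA6*, which pairs with β1 or β4, was at 89.1, 86.1 and 89.2 in CTL and at 101, 102 and 96.4 in ΔIL13RA2. The collagen receptor chain *ITGA2* was at 35.7, 33.7 and 36.5 in CTL and at 32.9, 32.4 and 32.9 in ΔIL13RA2. The ranges of *ITGA3* overlapped, all ΔIL13RA2 libraries were above CTL for *ITGA6*, and all were below CTL for *ITGA2*.

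Of the β chains, *ITGB1*, the common partner of most α chains, stood far above the rest in MDA231BrM2-CTL, at 165 ± 10.4 FPKM (SD, n = 3). The vitronectin receptor chain *ITGB5* followed at 23.5 ± 1.37 and *ITGB4*, the chain of hemidesmosomes, at 3.81 ± 0.0387. These levels did not overlap between the 3 genes.

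In untreated 4T1-CTL, *Itga3* was at 253, 237 and 232 FPKM and again led the α chains. It was followed by *Itgav*, which binds RGD-bearing ligands such as vitronectin, at 24.9, 17.5 and 22.4 FPKM, and by *Itga2* at 23.0, 16.1 and 20.8. The ranges of *Itgav* and *Itga2* overlapped, so their order is not resolved. *Itgb1* was at 427, 418 and 437 FPKM, and *Itgb5* at 50.7, 48.4 and 44.8.

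The third β chain of 4T1 was *Itgb2*, known from leukocytes, at 31.6, 33.7 and 32.4 FPKM in untreated 4T1-CTL. *Itgb4* lay beside it at 30.7 ± 1.13 (SD, n = 3), with overlapping ranges. Of the α chains with which β2 pairs, those followed here were *Itgal*, *Itgam* and *Itgax*, which were at 0 in all 3 untreated CTL libraries. A count of 0 allows up to 3 reads. Of 12 leukocyte markers, 1 (*Csf1r*, at 2.39 FPKM) was above 1 FPKM in 4T1-CTL and 8 were at 0, including *Ptprc*, *Laptm5* and *Tyrobp*.

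Human and mouse cells also differed in which kindlin they carried. Kindlin-2 (*FERMT2*), the widely expressed form, made up 56.2% ± 3.03 (SD, n = 3) of the summed kindlin FPKM in MDA231BrM2-CTL. Kindlin-3 (*FERMT3*), the form known from blood cells, made up 30.8% ± 2.64 and kindlin-1 (*FERMT1*), known from epithelia, 13.1% ± 0.410. In untreated 4T1-CTL, kindlin-1 made up 73.7% ± 0.595 and kindlin-3 only 1.03% ± 0.435. Across species these shares are a description, without a test.

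The first question was whether these genes differed between MDA231BrM2-ΔIL13RA2 and CTL. Genes with a mean of at least 1 FPKM over the 6 libraries were tested (24 of the 37) with limma on log2(FPKM + 1), and p-values were adjusted over all 11761 genes tested. On this scale the change of low genes is understated. Of the 24, 13 (54.2%) passed an adjusted p of 0.05, 4 higher and 9 lower in ΔIL13RA2. Of all genes tested, 28.7% passed, 12.6% higher and 16.1% lower. With TPM in place of FPKM, 5 of the genes were called higher and 5 lower, and the share of higher calls among all called genes moved from 44.0% to 64.3%.

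The median log2 fold change of the 24 genes was -0.12, against 0.0055 over all genes tested, and the median absolute change was 0.19 against 0.13. In 19 of the 24, the 3 knockout libraries lay wholly above (5) or below (14) the 3 CTL libraries, and 45.2% of all genes tested did so (21.4% above, 23.8% below). By role, the test was passed by 1 of 7 α chains, 4 of 5 β chains, 3 of 3 kindlins, 2 of 2 talins and 3 of 7 adaptors. Of the β chains called lower, *ITGB2* met the minimum of 1 FPKM only through CTL. In bulk RNA, fewer expressing cells and less RNA per cell cannot be told apart.

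**Figure D2:**
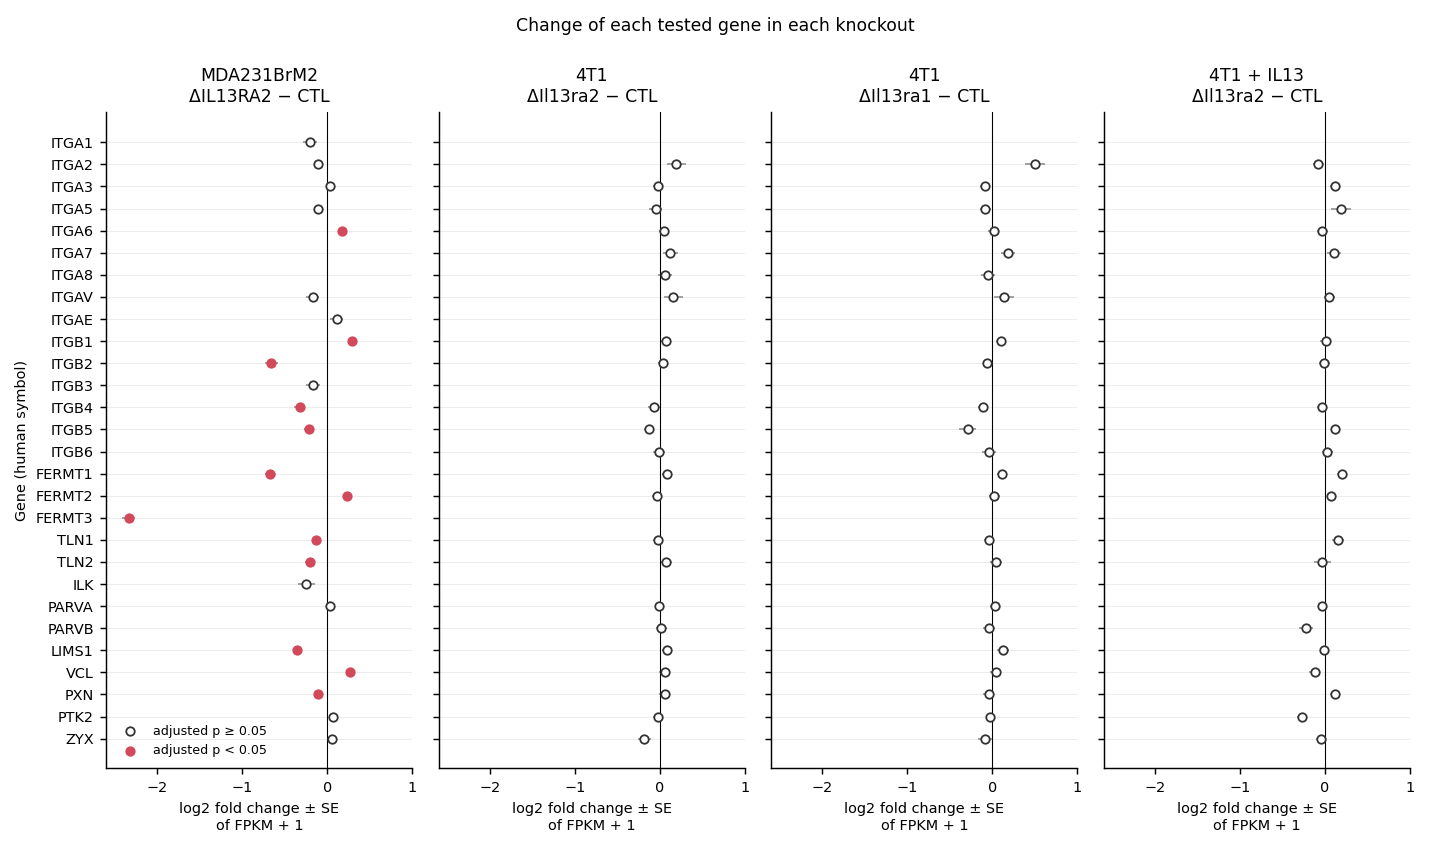
Log2 fold change of each tested gene between knockout and CTL in 4 comparisons, on the log2(FPKM + 1) scale. Points show the limma estimate, bars its SE, and filled points an adjusted p under 0.05. All 13 filled points are in the human line, and *FERMT3*, at -2.34, lies apart from the other genes.

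The kindlins held the largest change of the 24 genes, and they did not all move in one direction. *FERMT3* (ENSG00000149781, chr11:64206678-64223886 in hg38, plus strand) was at 10.04, 10.99 and 9.20 FPKM in CTL and at 1.35, 1.07 and 1.13 in ΔIL13RA2. Each CTL library was far above every knockout library, and the knockout mean was 0.118 times the CTL mean. The log2 fold change was -2.34 ± 0.08 (SE; adjusted p = 6.04e-06), from 1409 reads in the 3 CTL libraries and 200 in the 3 knockout libraries.

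*FERMT1* (ENSG00000101311, chr20:6074845-6123544, minus strand) was at 4.25, 4.43 and 4.17 FPKM in CTL and at 2.27, 2.53 and 2.15 in ΔIL13RA2. It fell in the same direction but by less, with a log2 fold change of -0.67 ± 0.06 (SE; adjusted p = 0.000339). *FERMT2* (ENSG00000073712, chr14:52857268-52952435, minus strand) was at 18.8, 17.3 and 19.1 FPKM in CTL and at 21.3, 22.01 and 22.2 in ΔIL13RA2. It rose by 0.23 ± 0.05 on the log2 scale (adjusted p = 0.00833), and this call was lost when the median change of the 50 neighboring genes was subtracted (adjusted p = 0.0550).

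Summed over the 3 kindlins, the level was 32.8 ± 0.320 FPKM in CTL and 25.3 ± 0.379 in ΔIL13RA2 (SD, n = 3). Of the knockout's sum, kindlin-2 made up 86.2% ± 0.859, kindlin-1 9.16% ± 0.716 and kindlin-3 4.69% ± 0.656. The libraries of the 2 groups did not overlap in any of these 3 shares, for which the exact permutation p is 0.1, the smallest that 3 against 3 libraries allow. The shares are parts of the same sum and restate the values above, so they are not separate results.

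**Figure D3:**
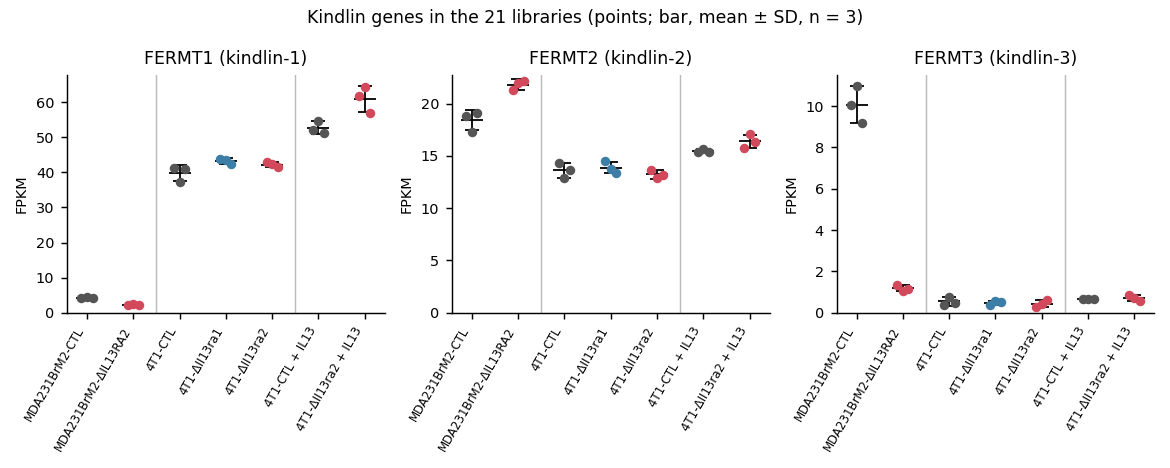
FPKM of the 3 kindlin genes in the 7 groups (points, libraries; bars, mean ± SD, n = 3); gray lines part the 3 tables, which were scaled separately. *FERMT3* was at 9.20 to 10.99 FPKM in MDA231BrM2-CTL, at 1.07 to 1.35 in ΔIL13RA2 and under 1 FPKM in all 4T1 groups, where *Fermt1* was the highest kindlin.

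The genes next to *FERMT3* changed far less than it did. Over the 50 tested genes around it the log2 fold changes ran from -0.53 to 0.15, with a median of -0.15, and *FERMT3* had the largest absolute change of them. Its last 88 bases overlap *TRPT1*, a tRNA-processing gene on the other strand, which went from 7.46 ± 0.993 to 5.19 ± 0.302 FPKM (log2 fold change -0.44, adjusted p = 0.00802). The strand setting of the read counting was not given in the sources used here, so reads in such overlaps cannot be assigned. Around *FERMT1* the median change was -0.0019, and *FERMT1* ranked 2 by absolute change.

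**Figure D4:**
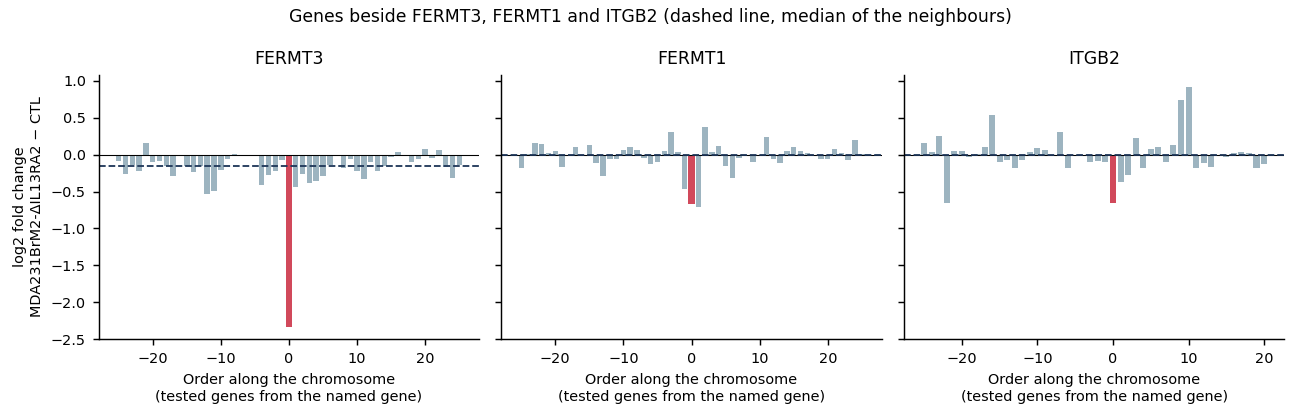
Log2 fold change (MDA231BrM2-ΔIL13RA2 minus CTL) of *FERMT3*, *FERMT1* and *ITGB2* (red, place 0) and of the tested genes next to each in chromosome order (blue). Dashed lines mark the medians of the neighbors, which were -0.15, -0.0019 and -0.0040. The bar of *FERMT3* reaches past all of its neighbors, whereas *FERMT1* and *ITGB2* had 1 and 2 neighbors with a larger absolute change.

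Of the 5 tested β chains, 4 changed in MDA231BrM2-ΔIL13RA2, the main one upward. *ITGB1* (chr10:32900319-33005792, minus strand) was at 161, 158 and 177 FPKM in CTL and at 195, 201 and 211 in ΔIL13RA2. Every knockout library was above every CTL library, with a log2 fold change of 0.29 ± 0.05 (SE; adjusted p = 0.00467). The summed β chain level was 196 ± 9.87 FPKM in CTL and 227 ± 7.36 in ΔIL13RA2 (SD, n = 3; exact permutation p = 0.1, the smallest possible).

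*ITGB2* (chr21:44885953-44931989, minus strand) was at 1.95, 2.03 and 1.86 FPKM in CTL and at 0.963, 0.737 and 0.912 in ΔIL13RA2. The groups did not overlap, and the log2 fold change was -0.66 ± 0.08 (SE; adjusted p = 0.000828), from 605 reads in CTL and 323 in the knockout. All knockout libraries were under 1 FPKM, so *ITGB2* met the minimum for testing only through CTL, a choice that favors a fall. With no minimum FPKM its adjusted p in limma was 0.00609. *ITGB4* (chr17:75721328-75757818, plus strand) was at 3.83, 3.77 and 3.84 FPKM in CTL and at 2.81, 3.12 and 2.59 in ΔIL13RA2. Its knockout libraries were all lower (log2 fold change -0.33 ± 0.07, adjusted p = 0.00817). It shares 6225 bases with *GALK1* on the other strand, at 8.67 ± 0.263 and 7.55 ± 0.567 FPKM (adjusted p = 0.0552).

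*ITGB5* (chr3:124761948-124901418, minus strand) was at 22.5, 25.1 and 23.1 FPKM in CTL and at 20.0, 21.2 and 19.1 in ΔIL13RA2. The groups did not overlap, but the change was small (-0.22 ± 0.06, adjusted p = 0.0216) and the call rested on single libraries. It was lost without CTL replicate 2 (adjusted p = 0.0582), without ΔIL13RA2 replicate 1 (0.0530) or 3 (0.0669), on TPM (0.0675) and with no minimum FPKM (0.0835). *ITGB3*, the chain of the platelet fibrinogen receptor, did not pass, at 1.23 ± 0.0532 and 0.991 ± 0.149 FPKM (adjusted p = 0.170).

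*ITGB2* is best known from leukocytes, and *FERMT3* from leukocytes and platelets. The summed level of 12 leukocyte markers was 25.5 to 26.3 FPKM in the CTL libraries and 22.2 to 22.5 in the knockout libraries. Nearly all of it was *LAPTM5*, a lysosomal membrane protein, which went from 24.9 ± 0.531 to 21.4 ± 0.423 FPKM (log2 fold change -0.21, adjusted p = 0.00496). No other marker of the list was above 1 FPKM, *SPI1*, *CD3E* and *TYROBP* were at 0 in both groups, and *PTPRC* (CD45) was at 0.00963 FPKM in CTL. The summed level of 9 platelet and endothelial markers was 0.139 to 0.177 FPKM in CTL and 0.229 to 0.277 in ΔIL13RA2, with none above 1 FPKM. The part of these marker differences in the changes of *ITGB2* and *FERMT3* was not tested.

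Among the 7 tested α chains, *ITGA6* (chr2:172427354-172506282, plus strand) was the one that passed, with the values given above and a log2 fold change of 0.18 ± 0.04 (SE; adjusted p = 0.00780). The genes around it had a median change of -0.30. *ITGA5*, the fibronectin receptor chain, was at 15.6 ± 0.213 and 14.4 ± 0.174 FPKM (adjusted p = 0.0649), and *ITGA2* at 35.3 ± 1.44 and 32.7 ± 0.309 (adjusted p = 0.0807). *ITGAV* was at 14.7 ± 0.446 and 12.96 ± 1.46 FPKM (adjusted p = 0.125). For each of these 3 the knockout libraries lay below the CTL libraries, without passing the test.

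*ITGA1*, another collagen receptor chain, was at 1.70 ± 0.244 and 1.34 ± 0.0487 FPKM (adjusted p = 0.114). It shares 16107 bases with *PELO* on the same strand, a ribosome-rescue gene that went from 17.4 ± 0.776 to 13.7 ± 0.210 FPKM (adjusted p = 0.00163), so its value is uncertain. *ITGA3* (log2 fold change 0.03, adjusted p = 0.618) and *ITGAE*, the chain of an E-cadherin receptor (0.11, adjusted p = 0.308), did not pass either. The summed α chain level was 284 ± 1.56 FPKM in CTL and 292 ± 4.04 in ΔIL13RA2.

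Both talins were slightly lower in ΔIL13RA2. *TLN1*, the main talin, was at 117, 120 and 112 FPKM in CTL and at 105, 107 and 105 in ΔIL13RA2 (log2 fold change -0.13 ± 0.03, adjusted p = 0.0227). *TLN2* was at 2.35, 2.43 and 2.41 FPKM in CTL and at 1.94, 2.01 and 1.93 in ΔIL13RA2 (log2 fold change -0.20 ± 0.06, adjusted p = 0.0358). The groups did not overlap for either gene. Both calls were fragile: that of *TLN1* was lost in 9 of 15 alternatives (adjusted p up to 0.192, on TPM), including the omission of any 1 library but CTL replicate 3, and that of *TLN2* in 9 of 14 (up to 0.0930), including the omission of any 1 of the 6 libraries.

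Of the 7 tested adaptors, 3 passed. Vinculin (*VCL*, chr10:73995193-74121363, plus strand), which links talin to actin, was at 38.5, 39.7 and 38.7 FPKM in CTL and at 47.4, 47.9 and 45.8 in ΔIL13RA2. All knockout libraries were higher, with a log2 fold change of 0.27 ± 0.03 (SE; adjusted p = 0.00126). PINCH1 (*LIMS1*, chr2:108534355-108687246, plus strand), which holds ILK in its complex, was at 11.1, 10.9 and 11.7 FPKM in CTL and at 8.33, 8.76 and 8.66 in ΔIL13RA2. All knockout libraries were lower (-0.35 ± 0.05, adjusted p = 0.00127), in a neighborhood whose median change was -0.17. *LIMS1* has near-identical copies in the genome, so reads shared with them make its value uncertain.

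The scaffold paxillin (*PXN*) was at 45.4 ± 0.792 FPKM in CTL and 42.1 ± 0.405 in ΔIL13RA2 (-0.11 ± 0.03, adjusted p = 0.0417). Its call was lost in 12 of 15 alternatives, with each single library left out and on TPM (adjusted p up to 0.315). FAK (*PTK2*), the kinase of focal adhesions, was at 17.99 ± 0.294 and 18.8 ± 0.265 FPKM (adjusted p = 0.243) and was called higher on TPM (0.13, adjusted p = 0.0269). α-parvin (*PARVA*, adjusted p = 0.532) and zyxin (*ZYX*, adjusted p = 0.477) did not pass. *ILK* was at 1.496 ± 0.216 and 1.10 ± 0.183 FPKM (adjusted p = 0.0966), and 4579 of its bases overlap *TAF10* on the other strand.

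The 13 genes left out of the test all had group means under 1 FPKM. The collagen receptor chain *ITGA10* was the highest of them at 0.984 ± 0.0523 in CTL and 0.857 ± 0.0114 in ΔIL13RA2, followed by *ITGA7* at 0.347 and 0.184 and *ITGB8* at 0.259 and 0.213. *ITGA4*, *ITGA8*, *ITGA9*, *ITGA11*, *ITGAL*, *ITGAM*, *ITGAX*, *ITGB6*, *ITGB7* and *PARVB* were near or at 0, and 9 of the 13 had at most 10 reads over the 6 libraries. Differences in those 9 were not detectable at this depth.

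The next question was whether the mouse line did the same. Untreated 4T1-CTL itself had only 2, 1 and 0 reads of *Il13ra2*, so there was hardly any receptor transcript to lose without IL13. The paper describes IL13-treated 4T1 as the closer counterpart of MDA231BrM2. In untreated 4T1-ΔIl13ra2 against CTL, 23 of the 37 genes were tested and none passed, while 0.714% of 11197 genes tested did. With limma, 1 of the 23 had an unadjusted p under 0.05 (*Zyx*; share of all genes not counted), and voom on recovered reads called none. In 5 of the 23 the 3 knockout libraries lay on one side of CTL (3 above, 2 below), against 26.2% of all genes tested (11.7% above, 14.4% below). The median log2 fold change was 0.03, against -0.0066 over all genes, with a range of -0.18 to 0.20.

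*Fermt1* was at 41.3, 37.2 and 40.9 FPKM in untreated 4T1-CTL and at 42.9, 42.3 and 41.5 in ΔIl13ra2 (log2 fold change 0.09 ± 0.06, adjusted p = 0.457). *Fermt2* was at 14.3, 12.9 and 13.7 in CTL and at 13.7, 12.9 and 13.1 in ΔIl13ra2 (-0.04 ± 0.06, adjusted p = 0.777). *Fermt3* was not tested, at 0.398, 0.776 and 0.472 in CTL and 0.271, 0.414 and 0.602 in ΔIl13ra2. Of these 3 genes only *Fermt1* had ranges that stood apart, and by a narrow gap.

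Of the other leading chains, *Itgb1* was at 441, 456 and 450.0 FPKM in untreated ΔIl13ra2 (mean 449 ± 7.78 against 427 ± 9.39 in CTL, adjusted p = 0.532). *Itga3* was at 249, 226 and 237 (237 ± 11.5 against 240 ± 10.8, adjusted p = 0.894), and *Itgav* at 24.4, 23.4 and 24.0 (adjusted p = 0.499). All knockout libraries were above CTL for *Itgb1*, whereas the ranges of both α chains overlapped. *Itgb2* was at 33.8, 32.1 and 34.2 FPKM (33.4 ± 1.12 against 32.6 ± 1.05, adjusted p = 0.774), with overlap, and *Itgb5* at 42.7, 44.2 and 44.4, all below CTL (adjusted p = 0.291). The smallest adjusted p was that of *Zyx*, an actin regulator at focal adhesions, at 60.3 ± 5.29 FPKM in CTL and 53.0 ± 3.04 in ΔIl13ra2 (-0.18 ± 0.07, adjusted p = 0.234).

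In 4T1-ΔIl13ra1, compared with the same CTL libraries, none of the 23 tested genes passed, and 0.00896% of all genes tested (1 gene) did. Under limma 2 of the 23 had an unadjusted p under 0.05 (share of all genes not counted), and voom called none. In 5 of the 23 the libraries lay on one side of CTL, against 17.6% of all genes. The largest change was in *Itga2*, at 23.0, 16.1 and 20.8 FPKM in CTL and 26.3, 29.2 and 29.8 in ΔIl13ra1. All ΔIl13ra1 libraries were above CTL, yet the CTL spread was wide and the test was not passed (0.50 ± 0.12, adjusted p = 0.358). *Itgb5* was at 50.7, 48.4 and 44.8 in CTL and 45.9, 35.3 and 36.5 in ΔIl13ra1 (-0.29 ± 0.10, adjusted p = 0.424). Its ranges overlapped.

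The other leading chains in ΔIl13ra1 were *Itga3*, at 236, 219 and 225 FPKM (adjusted p = 0.597), and *Itgav*, at 23.4, 22.7 and 24.9 (adjusted p = 0.659). *Itgb1* was at 448, 465 and 460 (adjusted p = 0.537) and *Itgb2* at 31.9, 30.6 and 31.2 (adjusted p = 0.670). All ΔIl13ra1 libraries were above CTL for *Itgb1*, and the ranges of the other 3 overlapped those of CTL.

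Set directly against each other, the 2 untreated mouse knockouts differed in 1 of the 23 genes, with 4.75% of all genes tested passing (2.2% lower in ΔIl13ra2). *Itga2* was at 23.1, 22.7 and 22.6 FPKM in ΔIl13ra2, below each of the ΔIl13ra1 values above (-0.31 ± 0.05, adjusted p = 0.0233). The call was lost in 7 of 16 alternatives. These were the fit with no minimum FPKM (0.0975), the fit with all 3 untreated groups (0.154), and the omission of ΔIl13ra1 replicate 2 (0.0747) or 3 (0.0849) or of ΔIl13ra2 replicate 1 (0.0590), 2 (0.0793) or 3 (0.0927). In 3 of the 23 genes the libraries lay on one side, against 29.7% of all genes.

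With IL13, none of 22 tested genes passed between 4T1-ΔIl13ra2 and CTL, while 0.529% of 11155 genes tested did. By limma 4 of the 22 had an unadjusted p under 0.05, namely *Ptk2*, *Fermt1*, *Parvb* and *Itgb5*. The share of all genes with such a p was not counted, here or in the other comparisons. Voom called *Ptk2* and *Fermt1*, with 715 calls among all genes, against 59 in limma on FPKM. In 7 of the 22 the libraries lay on one side (5 above, 2 below), against 32.8% of all genes (14.8% above, 18% below). The median log2 fold change was 0.0019, against -0.015 over all genes.

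FAK (*Ptk2*) came closest, at 18.9, 19.1 and 19.9 FPKM in IL13-treated CTL and at 16.1, 14.9 and 16.5 in ΔIl13ra2. The groups did not overlap, with a log2 fold change of -0.27 ± 0.06 (SE; adjusted p = 0.0773). Its adjusted p ranged from 0.0220 (voom on recovered reads) to 0.244 (no minimum FPKM) over 15 alternatives, and was 0.0496 with a minimum of 5 FPKM. Without the sparse ΔIl13ra2 replicate 2 the change was -0.23 (adjusted p = 0.131).

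*Fermt1* was at 52.1, 54.7 and 51.2 FPKM in IL13-treated CTL and at 61.8, 64.3 and 57.0 in ΔIl13ra2, again without overlap (0.21 ± 0.06, adjusted p = 0.126; 0.0381 with voom). *Fermt2* was at 15.4, 15.7 and 15.4 in CTL and 15.8, 17.1 and 16.3 in ΔIl13ra2 (0.07 ± 0.05, adjusted p = 0.415), and *Fermt3* at 0.652, 0.661 and 0.666 and at 0.841, 0.697 and 0.585. *Itgb5* was at 52.98, 51.5 and 52.7 FPKM in CTL and 58.8, 56.3 and 55.8 in ΔIl13ra2 (adjusted p = 0.194), and β-parvin (*Parvb*) at 3.17 ± 0.188 and 2.59 ± 0.230 (adjusted p = 0.178). None of the 4 tested genes among these passed in limma on FPKM.

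*Itgb1* with IL13 was at 355, 361 and 357 FPKM in CTL and at 354, 352 and 373 in ΔIl13ra2 (adjusted p = 0.944), and *Itga3* at 89.2, 91.4 and 82.3 and at 97.9, 97.0 and 91.0 (adjusted p = 0.283). *Itgav* was at 35.6, 37.04 and 31.8 and at 36.8, 36.5 and 34.9 (adjusted p = 0.654). *Itga2* was at 44.7, 48.4 and 42.2 and at 41.0, 43.7 and 43.5 (adjusted p = 0.497), and *Itgb2* at 7.48, 7.44 and 7.73 and at 7.46, 8.001 and 7.12 (adjusted p = 0.969). The ranges of all 5 genes overlapped between the groups.

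Whether the ΔIl13ra2 effect differed with and without IL13 was tested as an interaction within the 2 mouse tables. None of 23 genes passed, and 0.996% of all genes tested did. With limma 3 of the 23 had an unadjusted p under 0.05 (share of all genes not counted), and voom called none. These were *Ptk2* (difference of the effects -0.24 ± 0.07, adjusted p = 0.122), *Itgb5* (0.25 ± 0.07, adjusted p = 0.126) and *Parvb* (-0.24 ± 0.09, adjusted p = 0.252). *Itgb5* was lower in all untreated knockout libraries and higher in all IL13-treated ones.

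Levels in the 2 mouse CTL groups lay apart for several genes, of which 6 are given here, chosen after their values were seen. IL13 and the table cannot be told apart. In untreated and IL13-treated CTL, *Itga3* was at 240 ± 10.8 and 87.7 ± 4.74 FPKM, *Itgb2* at 32.6 ± 1.05 and 7.55 ± 0.159, and *Itga6* at 16.8 ± 1.13 and 8.05 ± 0.385. *Itga2* was at 20.0 ± 3.53 and 45.1 ± 3.09, and *Itgb6*, a chain of the TGF-β-activating integrin of epithelia, at 4.04 ± 0.132 and 7.12 ± 0.423. *Itgb1* was at 427 ± 9.39 and 358 ± 2.85 FPKM. The libraries of the 2 tables did not overlap for any of these 6 genes, which follows from that choice. The share of all genes that lay apart in this way was not counted.

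The 14 genes left out of the test in untreated 4T1 were *Itga1*, *Itga4*, *Itga9*, *Itga10*, *Itga11*, *Itgae*, *Itgal*, *Itgam*, *Itgax*, *Itgb3*, *Itgb7*, *Itgb8*, *Fermt3* and *Ilk*, all with group means under 1 FPKM, and *Itga8* joined them with IL13. *Ilk*, the core of its complex with PINCH and parvin, was the highest of the 14 in CTL at 0.696 ± 0.203 FPKM. It overlaps *Taf10* and *Rrp8* on the other strand, so its value is uncertain. *Parvb*, near 0 in the human line, was at 4.13 ± 0.0862 in untreated 4T1-CTL, and *Itga7*, *Itga8* and *Itgb6* were likewise above 1 FPKM in untreated 4T1-CTL but not in MDA231BrM2-CTL.

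Other genes of the pathway were read from 3 lists. Of 41 tested further adhesion adaptors, 18 passed in MDA231BrM2-ΔIL13RA2 (7 higher, 11 lower; median change -0.00097), against 28.7% of all genes. Leupaxin (*LPXN*), a paxillin relative, went from 71.7 ± 0.544 to 37.5 ± 2.88 FPKM (-0.92 ± 0.05, adjusted p = 4.58e-05). Caveolin-1 (*CAV1*), the coat protein of caveolae, rose from 74.1 ± 3.48 to 121 ± 4.77 (0.71 ± 0.05, adjusted p = 6.6e-05). *ARHGEF7* (β-PIX), a Rac exchange factor, rose from 4.33 ± 0.208 to 6.52 ± 0.511 (0.50 ± 0.06, adjusted p = 0.00125), among neighbors whose median change was 0.49, and with that median subtracted its change was -0.00044.

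Of 17 tested matrix ligands, 10 (58.8%) passed in the human line, against 28.7% of all genes. Of the 10, 6 were higher and 4 lower, with changes of the 17 from -0.38 to 0.47 (median -0.02), and 10 of the 17 had a change below 0. Among those that rose, *MFGE8*, a ligand of αv integrins, went from 26.3 ± 0.337 to 36.7 ± 0.983 FPKM (0.47, adjusted p = 0.000137), and *EDIL3*, another αv ligand, from 15.4 ± 1.05 to 20.9 ± 0.399 (0.41, adjusted p = 0.00123). The neighbors of *MFGE8* had a median change of 0.33.

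Of 18 tested integrin partners and counter-receptors, 4 (22.2%) passed, 2 higher and 2 lower (median change 0.01), against 28.7% of all genes. The junctional adhesion molecule *F11R* rose from 2.32 ± 0.0952 to 4.21 ± 0.290 FPKM (0.65, adjusted p = 0.000393) and the syndecan *SDC2* from 8.54 ± 0.105 to 11.2 ± 0.0904 (0.36, adjusted p = 0.000651). *SLC3A2*, the CD98 heavy chain that binds β1 tails, fell from 67.9 ± 1.78 to 46.6 ± 1.13 (-0.53, adjusted p = 7.5e-05).

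In untreated 4T1-ΔIl13ra2, where 0.714% of all genes passed, 1 of 40 adaptors passed, the tensin *Tns4* (12.2 ± 0.208 to 15.6 ± 0.682 FPKM, adjusted p = 0.0382), and 1 of 16 ligands, osteopontin (*Spp1*, 37.9 ± 4.02 to 60.6 ± 2.03, adjusted p = 0.0105). The call of *Tns4* was lost in 9 of 16 alternatives, including the omission of any 1 library (adjusted p up to 0.185), and that of *Spp1* in 4, including the omission of CTL replicate 2 or ΔIl13ra2 replicate 3. None of 18 partners passed, and in 4T1-ΔIl13ra1, with 0.00896% of all genes called, none of the 3 lists held a call. With IL13, where 0.529% of all genes passed, 2 of 16 ligands did: fibronectin (*Fn1*) was higher in ΔIl13ra2 (177 ± 16.3 to 266 ± 12.7 FPKM, adjusted p = 0.0385) and periostin (*Postn*) lower (4.11 ± 0.353 to 1.19 ± 0.217, adjusted p = 0.00806). The call of *Fn1* was lost in 7 of 15 alternatives, including the omission of any 1 library but CTL replicate 3, and that of *Postn* in 2 of 14, 1 of them the omission of CTL replicate 2. No adaptor or partner passed there.

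Between ΔIl13ra2 and ΔIl13ra1, where 4.75% of all genes passed, 2 of 40 adaptors (*Tns4* and *Tns2*, both higher in ΔIl13ra2), 5 of 16 ligands (3 higher, 2 lower) and 2 of 18 partners (*Cd81* higher, *Tspan4* lower) passed. The largest was *Spp1*, at 30.0 ± 1.38 FPKM in ΔIl13ra1 and 60.6 ± 2.03 in ΔIl13ra2 (0.99 ± 0.05, adjusted p = 0.0002), followed by *Cyr61* (-0.42, adjusted p = 0.0192) and *Postn* (0.37, adjusted p = 0.0217). The call of *Spp1* held in 16 of 16 alternatives, whereas each of the other 6 named calls was lost in 3 to 10 of 16, single omitted libraries among them. The interaction with IL13 was passed by 0.996% of all genes, by no adaptor or partner and by 3 of 16 ligands: *Postn* (-1.19, adjusted p = 0.000728), *Spp1* (-0.63, adjusted p = 0.0181) and *Cyr61* (0.54, adjusted p = 0.0462). That of *Postn* held in 20 of 20 alternatives, that of *Spp1* was lost in 5 and that of *Cyr61* in 15.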

How the data were processed

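Total RNA was extracted from cultured cells and sequenced by a service company. RNA selection and strandedness were not given in the sources used here. The submitters' processing notes name HISAT2 2.0.5, featureCounts 1.5.0-p3 and the builds hg38 and mm10. The authors deposited FPKM values per gene in 3 tables (human, untreated mouse, IL13-treated mouse), each scaled alone. FPKM times gene length gave whole reads for 100% of values in each library, within 0.1 read, and these gave the depths.

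Comparisons stayed within a table. Genes with a mean of at least 1 FPKM over the 6 libraries were tested on log2(FPKM + 1) with limma 3.58.1 in R 4.3.3 (empirical Bayes with trend and robust estimation, two-sided, Benjamini-Hochberg adjustment over all genes tested, threshold 0.05). The interaction used both mouse tables with a table term. Scripts were tested on simulated data. Alternatives were a pseudocount of 0.1, no minimum or a minimum of 5 FPKM, TPM, quantile normalization, no trend, voom on the recovered reads, a replicate block, subtraction of the median of 25 tested genes on each side, all untreated mouse groups together, and leaving out each library. Intervals were not computed, and 0 reads allow up to 3.

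Values in every library are given for called genes (10 with the largest change), the kindlins, and the 3 α and 3 β chains highest in each line's CTL; for related lists, at most 3 called genes per comparison. Some genes of these lists are not reported here by name. The genes and lists were chosen with earlier results of these data known. Gene positions are those in the deposited tables.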

Additional observations from a re-analysis of the deposited data

Results flagged for a closer look

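For 7 genes, 9 pairs of *IL13RA2* knockout effects went opposite ways in every library of both comparisons. The share of all genes with such opposite pairs was not counted. Of all genes tested, 45.2% in MDA231BrM2, 26.2% in untreated 4T1 and 32.8% in IL13-treated 4T1 had all knockout libraries on one side of CTL. Apart from 1 pair within 4T1, these are pairs across lines, whose difference was not tested. All values are on the log2(FPKM + 1) scale.

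Between MDA231BrM2 and untreated 4T1, the effect in 4T1 minus that in MDA231BrM2 was 0.3627 for *ITGA1*, 0.3729 for *ITGB3* and 0.7573 for *FERMT1*. *ITGA1* and *ITGB3* were under 1 FPKM in 4T1 and not tested there, at 0.106 and 0.236 FPKM and at 0.471 and 0.694 in CTL and ΔIl13ra2. *FERMT1* was at 4.28 and 2.32 FPKM in the human line and at 39.8 and 42.2 in the mouse line.

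Between MDA231BrM2 and IL13-treated 4T1, the difference was 0.8783 for *FERMT1*, 0.3374 for *ITGB5*, 0.2843 for *TLN1*, 0.2262 for *PXN* and -0.3324 for *PTK2*. The human line was untreated, so line and treatment cannot be told apart. *TLN1* was at 116 and 106 FPKM in MDA231BrM2 and at 46.6 and 51.8 in IL13-treated 4T1, and *PXN* at 45.4 and 42.1 and at 25.2 and 27.5.

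Within 4T1, the effect on *ITGB5* with IL13 minus that without was 0.2458, with an interaction adjusted p of 0.126 in limma. *Itgb5* was at 47.9 and 43.8 FPKM in untreated CTL and ΔIl13ra2 and at 52.4 and 57.0 with IL13.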

How the results depend on the processing

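In MDA231BrM2 the 13 calls became 9 to 13 under the other settings, and 9 to 11 when each library was left out. Called under every alternative that tested them were *FERMT3*, *FERMT1*, *ITGB1*, *ITGB2*, *ITGB4*, *ITGA6*, *VCL* and *LIMS1*. None of the 28 member effects with an unadjusted p under 0.05 changed direction, which partly follows from choosing them by that p in the same libraries. Of the 110 with a larger p, 57 did so in at least 1 alternative (118 of 1793 values), among them that of *ITGAV* in MDA231BrM2 with the median of its neighbors subtracted. Among the called genes of the related lists that are named, *ARHGEF7* reversed, to -0.00044 with that subtraction. In untreated 4T1-ΔIl13ra2, in ΔIl13ra1 and in the interaction, the count was 0 throughout. With IL13 it was 1 with a minimum of 5 FPKM, which called 230 of all genes, and 2 with voom, which called 715. It was 0 without any 1 library. Between ΔIl13ra2 and ΔIl13ra1 the count of 1 became 0 with no minimum FPKM and 0 with all 3 untreated groups in one fit, and ranged from 0 to 2 when each library was left out. The cause was not tested. On TPM, 64.3% of all called genes were higher in MDA231BrM2-ΔIL13RA2 (44.0% on FPKM), 67.0% in IL13-treated ΔIl13ra2 (50.8% on FPKM) and 16.9% in ΔIl13ra2 against ΔIl13ra1 (53.7% on FPKM). TPM moved the median log2 fold change of all genes by over 0.1 only in ΔIl13ra1, to 0.10.

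Same-numbered libraries correlated weakly, at -0.106 to 0.173, in their deviations from the group means, and no comparison had every pair over 0.1. A replicate block moved the calls among all genes from 80 to 143 in untreated 4T1-ΔIl13ra2 against CTL. Between the mouse knockouts it moved them from 533 to 558, and in the other comparisons it lowered them. Whether replicate numbers mark samples handled together was not tested. With that block the count among the 37 genes was 11 in MDA231BrM2, 1 between the mouse knockouts, where each library correlated best with its own number, and 0 in the others. Lowly expressed genes are limited by depth, and IL13-treated ΔIl13ra2 replicate 2 has few genes at exactly 1 read.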
